A study of Mus musculus with 9 samples.

Results

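The genes that license DNA for replication were followed through the proximal colon of 9 mice. The mice had 3 genotypes at Shmt1, which encodes the cytosolic form of serine hydroxymethyltransferase (cSHMT). The members were Mcm2 to Mcm7, Pcna, Cdc6, Cdt1 and Ccne1, 10 of the 12393 genes that have probe sets of 1 gene symbol on the Affymetrix array. All 22 probe sets annotated with one of these symbols were taken, and 20 of them, covering all 10 genes, were bright enough to be tested. The other pair, a dim Mcm3 probe set and a Cdt1 probe set that read at most 0.8 signal units in any array, lay under the limit. There were 3 wild-type mice, 3 mice heterozygous for the cSHMT mutation and 3 cSHMT mutant mice, with 1 array of total colon RNA each. All of them came from a line backcrossed to C57Bl/6 for 10 generations, were 9 weeks old, and were fed a diet without folate or choline from weaning at 3 weeks. For the duration of the diet the labels hold both 6 weeks and 5 weeks. They describe the mice as biological replicates, and do not say how the allele was altered. No group received a diet with folate, so every comparison is between genotypes within the deficient diet.

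A replication origin is licensed in G1 phase, when the origin recognition complex, CDC6 and CDT1 load the ring of MCM2 to MCM7 onto DNA as an inactive helicase. In S phase, cyclin E and CDK2 help to start replication, the rings unwind DNA, and PCNA, the sliding clamp, holds polymerases on the template. Most of these genes are transcribed under E2F factors as cells pass from G1 to S phase. In the colon they are expressed mainly by dividing cells of the crypts. Serine hydroxymethyltransferase hands on a carbon unit that is used to make thymidylate, a building block of DNA, which is why a folate-deficient colon is a place to read the replication genes.

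The promoter windows of RefSeq (build GRCm38.p6, 250 bases before to 50 after an annotated start, 300 bases in all, read on the strand of the gene) held 10 windows of 9 members, none for Mcm4. E2F sites were searched on both strands as TTTCCCGC, TTTCGCGC, TTTGCCGC or TTTGGCGC, and CCAAT boxes as CCAAT. An E2F match stood in 6 of the 10 windows, against 2.26% of all 32851 windows, and a CCAAT box in 7 of 10, against 37.4%. The 6 were those of Mcm3, Mcm5, Mcm6, Cdc6, Cdt1 and 1 of the 2 windows of Mcm7. A match is a description of the letters and shows no binding. The 5 windows below are printed because 3 belong to helicase subunits, 1 to a loader, and the last to Pcna, which was not highest in the arrays numbered 1. Capitals mark the E2F and CCAAT matches, some of which overlap, as do the 2 E2F matches in Mcm5.
Mcm5, chr8:75109259-75109558, plus strand: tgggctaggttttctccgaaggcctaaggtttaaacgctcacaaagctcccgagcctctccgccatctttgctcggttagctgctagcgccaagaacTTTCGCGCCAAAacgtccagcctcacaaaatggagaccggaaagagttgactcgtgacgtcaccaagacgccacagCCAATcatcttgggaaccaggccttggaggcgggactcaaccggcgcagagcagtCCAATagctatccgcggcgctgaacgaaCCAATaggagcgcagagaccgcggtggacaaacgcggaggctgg
Mcm6, chr1:128359656-128359955, minus strand: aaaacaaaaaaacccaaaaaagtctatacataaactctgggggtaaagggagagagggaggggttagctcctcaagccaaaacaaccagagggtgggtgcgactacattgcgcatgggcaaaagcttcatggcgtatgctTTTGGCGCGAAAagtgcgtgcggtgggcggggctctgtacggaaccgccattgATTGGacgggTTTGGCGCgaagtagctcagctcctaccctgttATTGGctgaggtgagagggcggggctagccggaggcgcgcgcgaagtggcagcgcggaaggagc
Mcm7, chr5:138171834-138172133, minus strand: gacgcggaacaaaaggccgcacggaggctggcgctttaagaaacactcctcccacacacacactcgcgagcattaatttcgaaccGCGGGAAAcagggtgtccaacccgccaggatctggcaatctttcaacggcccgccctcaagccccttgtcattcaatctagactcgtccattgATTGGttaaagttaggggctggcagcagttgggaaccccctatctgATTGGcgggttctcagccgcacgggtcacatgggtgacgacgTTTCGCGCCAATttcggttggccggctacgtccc
Cdt1, chr8:122567765-122568064, plus strand: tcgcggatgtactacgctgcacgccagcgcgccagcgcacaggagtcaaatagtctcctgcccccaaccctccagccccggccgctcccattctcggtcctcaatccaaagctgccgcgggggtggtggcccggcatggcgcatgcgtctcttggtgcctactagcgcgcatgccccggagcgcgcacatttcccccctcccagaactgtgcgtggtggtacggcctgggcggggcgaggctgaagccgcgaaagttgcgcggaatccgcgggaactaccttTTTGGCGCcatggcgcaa
Pcna, chr2:132253131-132253430, minus strand: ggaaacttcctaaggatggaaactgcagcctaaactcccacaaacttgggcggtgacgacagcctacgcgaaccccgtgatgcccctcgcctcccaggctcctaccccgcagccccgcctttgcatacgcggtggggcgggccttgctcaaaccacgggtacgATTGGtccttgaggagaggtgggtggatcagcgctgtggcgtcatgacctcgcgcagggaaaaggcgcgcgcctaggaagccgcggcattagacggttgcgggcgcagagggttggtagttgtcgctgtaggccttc
Mcm6 held 3 E2F matches, Mcm5 and Mcm7 2 each, Cdt1 1 and Pcna none. The windows of Mcm2, Pcna and Ccne1 held no E2F match with these letters.

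Between arrays, normalized log2 signals correlated at 0.9858 to 0.9934 over 36 pairs, and 3 mice per genotype limit the precision of every value. Shmt1 itself, on its probe set with the widest difference, read 564.3 to 644.1 in wild-type, 274.4 to 337 in heterozygous and 113.1 to 120 in mutant colons. That is the order the labels imply. Of 8 absorptive colonocyte markers, 7 read 1028.3 or more in every array, Car1 at 4900.9 or more, while Aqp8 ranged from 30 in heterozygous 1 to 645.8 in mutant 1. Of 4 small intestine markers, Lct and Apoa4 stayed at or below 44.6, and Fabp6 and Fabp2 were bright, at 1970 or more and 5858.7 or more. The ratio of beta-actin signal at the 3' end to that at the 5' end, which grows when labelled RNA is shorter, was 4.45 to 5.02 in the 3 arrays numbered 1 and 2.52 to 3.75 in the other 6. Signals given for single arrays are the deposited linear values, and log2 differences come from quantile-normalized values. Because colon tissue was measured as a mixture of cell types, fewer dividing cells and less of a transcript per cell cannot be told apart.

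No licensing gene was called in any of the 3 genotype comparisons. Of the 20 tested probe sets, 0 passed an adjusted p of 0.05 in limma in mutant against wild-type, heterozygous against wild-type or mutant against heterozygous colons, where 0.0221%, 0% and 0.0221% of all 13576 tested probe sets passed. At an unadjusted p under 0.05 there were 0, 1 and 0 member probe sets, beside 3.84%, 8.01% and 7.56% of all. The 1 was lower, as were 3.55% of all in that comparison. What the members did share was their variation between mice. In normalized log2 signal on their leading probe sets, 7 of the 10 genes were highest in the array numbered 1 of every genotype. The others were Mcm3, Mcm7 and Pcna. In deposited signal Mcm2 and Ccne1 left this order too, with mutant 3 above mutant 1 (475.2 and 414.5 for Mcm2, 137 and 130.4 for Ccne1). For Ccne1 wild-type 3 was also above wild-type 1, at 106.5 and 101.5.

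Mcm2, a subunit of the helicase, read 485.7, 350.2 and 369.3 on its leading probe set in wild-type colons 1, 2 and 3. In heterozygous colons it read 526.4, 300.7 and 339.9, and in mutant colons 414.5, 411.8 and 475.2. The highest and the lowest value of all 9 were both heterozygous, so the 3 genotypes overlapped. Means were 401.7 ± 73.3 (SD, n = 3), 389 ± 120.6 and 433.8 ± 35.9, and the log2 difference between mutant and wild-type was 0.12 (95% interval -0.39 to 0.64, adjusted p = 0.998). The leading probe set of a gene is the one with the highest mean normalized signal. On the other Mcm2 probe set, signals were 151.3, 114.1 and 105.3 in wild-type and 101.7, 68 and 85.9 in heterozygous colons, which did not overlap. That log2 difference of -0.50 had an unadjusted p of 0.0439 and an adjusted p of 0.609 in limma, and it was the only member value under 0.05 before adjustment. In mutant against wild-type colons this probe set gave -0.17, opposite in sign to the leading one. On the leading probe set the heterozygous difference was -0.08, so the 2 probe sets of Mcm2 did not give 1 size of effect.

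Mcm6, another subunit of the ring, read 1000.3, 686.3 and 735.3 in wild-type, 1173.6, 727.2 and 641.6 in heterozygous and 1009.1, 936.1 and 923.4 in mutant colons. The arrays numbered 1 were the highest of their genotype in all 3, and the mutant values lay close together. Its log2 difference was 0.26 in mutant against wild-type (95% interval -0.26 to 0.77) and 0.24 in mutant against heterozygous colons. The other Mcm6 probe set gave -0.10 and 0.07. Probe sets whose names end in _x_at, as the leading ones of Mcm6 and Mcm4 do, hold probes that can also match other transcripts, so their signal is less certain to come from the named gene alone.

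Mcm4 read 598.2, 522.8 and 576.7 in wild-type, 866.8, 497.4 and 679 in heterozygous and 871, 460.5 and 726.6 in mutant colons. Both carrier genotypes thus held arrays above and below every wild-type value. The log2 difference was 0.22 in mutant and 0.21 in heterozygous against wild-type, with intervals of -0.35 to 0.78 and -0.36 to 0.78, 2 comparisons that share the wild-type arrays. The other Mcm4 probe set read 362.4 to 551.8 in all 9 arrays and gave log2 differences of -0.02 and -0.13.

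Mcm5, which had 1 probe set and was dim, read 116.8, 93.7 and 98.9 in wild-type, 109.9, 81.6 and 86.4 in heterozygous and 115.6, 97.8 and 115.1 in mutant colons. Its log2 difference of 0.27 in mutant against heterozygous colons (95% interval -0.18 to 0.71, adjusted p = 0.755) was the largest of the helicase subunits on their leading probe sets. Mcm3 read 232.5, 242.1 and 304.7 in wild-type, 349.7, 182.4 and 252.7 in heterozygous and 250.2, 237 and 354.4 in mutant colons. Heterozygous 1 and mutant 3 were the high arrays here, and the genotypes overlapped. The 4 tested Mcm3 probe sets gave log2 differences of 0.09 to 0.31 in mutant against wild-type and of -0.05 to 0.29 in heterozygous against wild-type colons.

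Mcm7 was read by 4 tested probe sets, as many as Mcm3, and they disagreed. Its leading probe set read 708.3, 610.9 and 799.4 in wild-type, 732.1, 551.7 and 576.9 in heterozygous and 647.5, 832.5 and 634.8 in mutant colons, a log2 difference of -0.01 in mutant against wild-type. A second one, with a name ending in _x_at, read 543, 475 and 484.1 in wild-type, 763.4, 476.5 and 453.8 in heterozygous and 641.2, 692.1 and 569.3 in mutant colons. Mutant and wild-type values did not overlap, and their log2 difference was 0.32 (95% interval -0.15 to 0.80, adjusted p = 0.998). It was the 1 member probe set of 20 that lay wholly above wild-type in mutant colons, where 4.04% of all probe sets did. Another Mcm7 probe set read 248.1, 217.4 and 242.6 in heterozygous colons, below the 267.2, 254.6 and 302.3 of wild-type and the 262, 295.4 and 286 of mutant colons (log2 difference -0.23 against wild-type, adjusted p = 0.697). It was the 1 member probe set wholly higher in mutant than in heterozygous colons, and none was wholly lower, where 5.75% and 4.59% of all probe sets lay so. On the dimmest of the 4 the 3 genotypes overlapped.

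Of the loaders, Cdc6 varied most between mice. Cdc6, the ATPase that recruits the helicase to origins, read 95, 84.8 and 59 in wild-type, 129, 69.9 and 57.5 in heterozygous and 111.4, 89.6 and 106.5 in mutant colons. Heterozygous 1 and 3 were the highest and the lowest of all 9 arrays. Its log2 difference of 0.34 in mutant against wild-type was the largest among the 10 leading probe sets, with the widest interval, -0.32 to 0.99. Cdt1, the partner of CDC6 that is destroyed once S phase begins, read 1441.9, 1321.5 and 1134.3 in wild-type, 1887.7, 1236 and 1212.2 in heterozygous and 1536.3, 1506.1 and 1301.5 in mutant colons. Within each genotype the array numbered 1 was the highest. Log2 differences of Cdt1 were 0.15 in mutant and 0.11 in heterozygous against wild-type on the leading probe set, and 0.11 and -0.05 on the other tested one.

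Ccne1, which encodes cyclin E1, the activator of CDK2 at the start of S phase, read 101.5, 89.7 and 106.5 in wild-type, 144.7, 89.6 and 98.3 in heterozygous and 130.4, 82.9 and 137 in mutant colons. The mutant values enclosed all wild-type values. The log2 difference was 0.20 in mutant and 0.07 in heterozygous against wild-type, with intervals of -0.33 to 0.73 and -0.45 to 0.60.

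Pcna, the sliding clamp, read highest in the wild-type colons. Its signals were 1936.2, 1934.3 and 1859.7 in wild-type, 1658.8, 1693.6 and 1631.3 in heterozygous and 1461, 1853.8 and 1786.3 in mutant colons. All 6 carriers of the mutation lay below all 3 wild-type colons, and mutant 1 was the lowest. Means were 1910 ± 43.6, 1661 ± 31.2 and 1700 ± 210 (SD, n = 3). The log2 difference was -0.17 in mutant (95% interval -0.38 to 0.04, adjusted p = 0.998) and -0.20 in heterozygous colons (95% interval -0.41 to 0.01, adjusted p = 0.633), and neither passed in limma. Pcna was the 1 member probe set of 20 wholly below wild-type in mutant colons and 1 of 3 in heterozygous colons, where 2.95% and 5.90% of all probe sets lay so. No member lay wholly above wild-type in heterozygous colons, where 6.03% of all did. The 2 comparisons share the wild-type arrays.

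**Figure D1:**
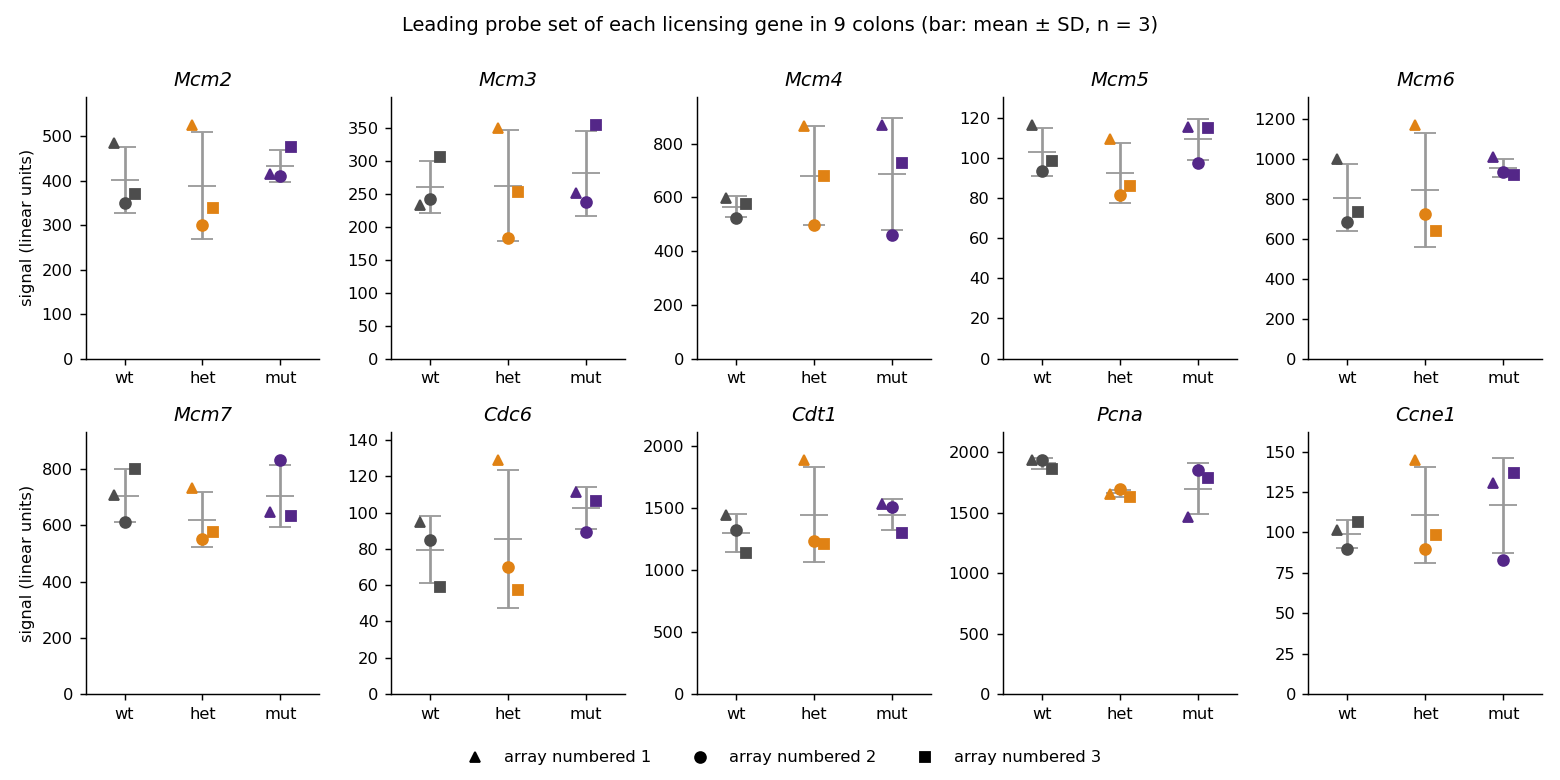
Deposited linear signal of the leading probe set of each of the 10 genes, with 1 point per mouse, the point shape giving the number of the array and the bar the mean ± SD of 3 mice. Heterozygous 1 is the highest of its genotype in 9 of the panels, and Pcna is the panel in which all carriers lie below wild-type.

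**Figure D2:**
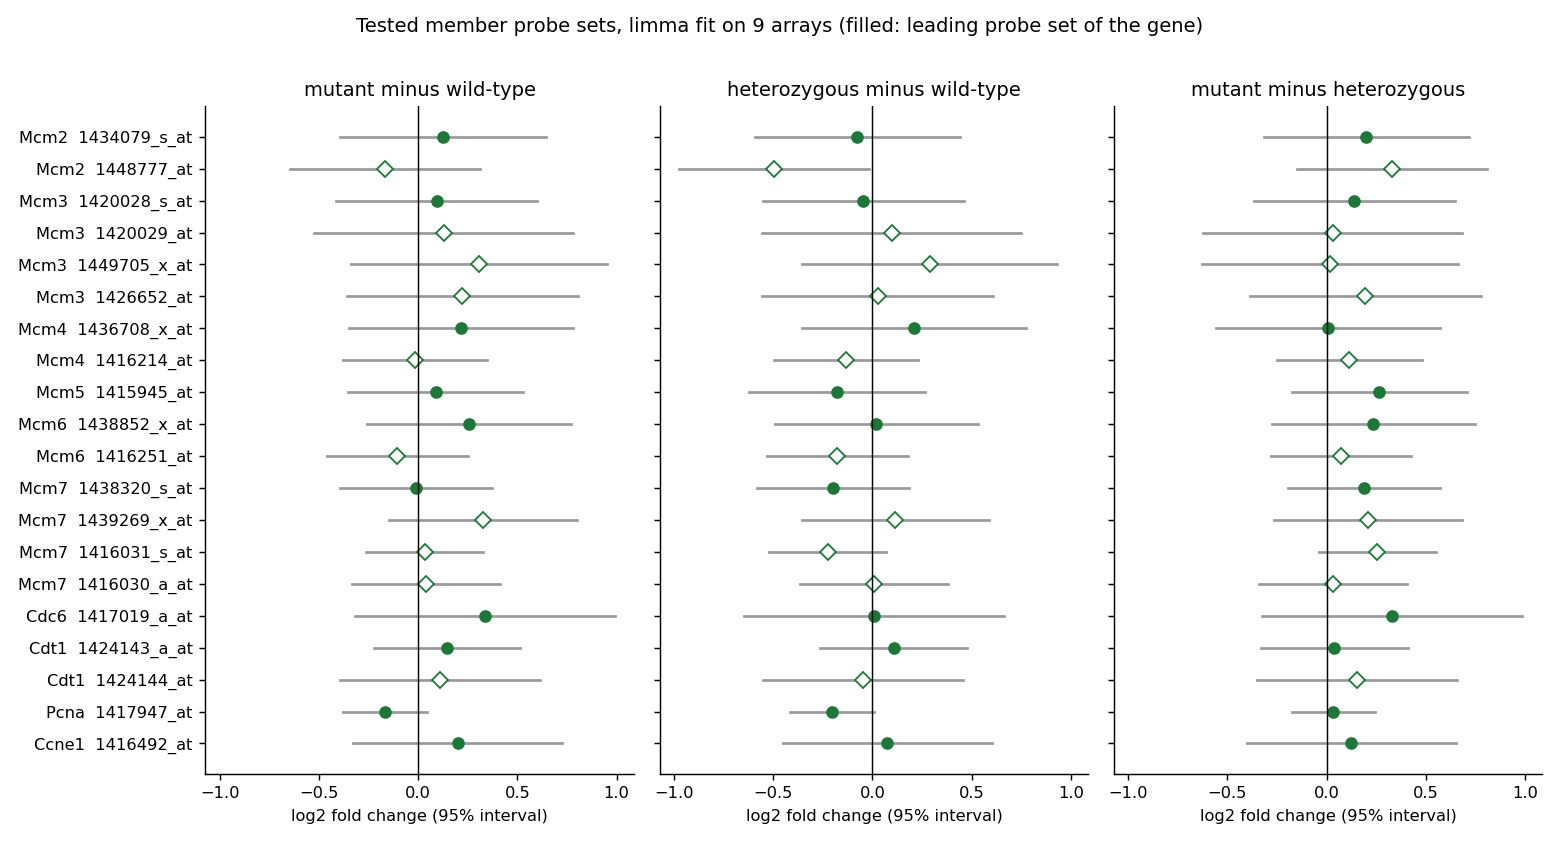
Log2 difference (point) and 95% interval (line) from the limma fit for the 20 tested member probe sets in the 3 comparisons, with filled points for the leading probe set of a gene. All points lie above 0 in mutant minus heterozygous, and the interval excludes 0 only for the dimmer Mcm2 probe set in heterozygous minus wild-type.

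Read as a group, the members leaned upward in mutant colons without any of them passing. In mutant against wild-type colons 8 of the 10 leading probe sets were higher, with a median log2 difference of 0.14, while 51.0% of all probe sets were higher, 49.0% lower, and their median was 0.00364. Mcm7 and Pcna were the lower ones. That median was 0.06 without wild-type 2, 0.09 without wild-type 3, 0.07 without mutant 1, with 6 of 10 higher, and 0.27 without wild-type 1. With the mean over the tested probe sets of each gene it was 0.098. Of all 20 tested probe sets 15 were higher and 5 lower, the second ones of Mcm2, Mcm4 and Mcm6 among the lower. In heterozygous against wild-type colons the members divided evenly, 5 higher and 5 lower, with a median of -0.02, beside 49.0% higher and 51.0% lower of all probe sets. In mutant against heterozygous colons all 10 were higher, from 0.00627 for Mcm4 to 0.33 for Cdc6 with a median of 0.16, and so were all 20 tested probe sets, beside 50.4% higher and 49.6% lower of all probe sets. Members that vary together between mice are not separate pieces of evidence.

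The count of 10 rested on single mice. Without heterozygous 2 it was 6 of 10, without heterozygous 3 or mutant 2 it was 9, without mutant 3 it was 8, and without mutant 1 it was 7. The median of 0.16 moved too, to 0.04 without heterozygous 2, 0.06 without heterozygous 3, 0.25 without mutant 2 and 0.40 without heterozygous 1, where all 10 were still higher. Without heterozygous 1, 5 of the 10 genes had an unadjusted p under 0.05, beside 5.48% of all probe sets in that direction, and the smallest adjusted p was 0.464, for Cdc6. In the same way, without heterozygous 1 all 10 members were lower in heterozygous than in wild-type colons, with a median of -0.29, in place of 5.

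The mean of the 10 members, each centred on its own average over the arrays, showed the pattern in 1 number per mouse. It was 0.38 on the log2 scale in heterozygous 1, 0.23 in mutant 1 and 0.19 in wild-type 1, the 3 highest of all arrays. Among the other 6 it was 0.08 and -0.02 in mutant 3 and 2, -0.12 and -0.16 in wild-type 3 and 2, and -0.26 and -0.31 in heterozygous 3 and 2. Within the arrays numbered 2 and 3 the genotypes thus did not overlap, in the order mutant, wild-type, heterozygous. Of the arrays numbered 1 the heterozygous mouse was the highest. That genotype order sets aside the arrays that were highest for these same members, rests on 2 mice a genotype, and was not tested. Within the numbers 1, 2 and 3, mutant minus wild-type was 0.04, 0.14 and 0.20, heterozygous minus wild-type 0.19, -0.14 and -0.13, and mutant minus heterozygous -0.15, 0.28 and 0.34. Without the arrays numbered 1, the signals of 7 of the 10 genes were wholly higher in mutant than in heterozygous colons, Mcm2, Mcm5, Mcm6, Mcm7, Cdc6, Cdt1 and Pcna, with 2 mice a group and beside 19.9% of all probe sets, and none was wholly lower, beside 19.1%. Against wild-type, 3 genes were wholly higher in mutant colons (Mcm2, Mcm6 and Cdc6) and 1 wholly lower, beside 15.1% and 15.2% of all. In heterozygous against wild-type colons 0 genes were wholly higher and 4 wholly lower, beside 16.8% and 19.6%. In limma without those arrays Cdc6 fell under the brightness limit, and 0 member probe sets were called in the 3 comparisons, with 2, 1 and 4 of 18 at an unadjusted p under 0.05, beside 4.70%, 4.48% and 10.1% of all.

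The arrays numbered 1 stood apart for these genes more than for most. In log2, the mean of the 3 arrays numbered 1 exceeded that of the other 6 by 0.68 for Cdc6, 0.55 for Mcm4, 0.55 for Mcm6, 0.51 for Mcm2, 0.50 for Ccne1 and 0.45 for Mcm5. For Cdt1, Mcm3 and Mcm7 it did so by 0.34, 0.28 and 0.21, and for Pcna the difference was -0.11. Over all tested probe sets the median of this difference was 0.00222, and the middle 50% lay between -0.13 and 0.12. In normalized signal, the array numbered 1 was the highest of its genotype in all 3 genotypes on 9 of the 20 member probe sets. The share over all tested probe sets was 9.09%. Probe sets of 1 gene did not share the size of the difference. For Mcm6 it was 0.55 on the leading and 0.24 on the other probe set, for Mcm4 0.55 and 0.20, and for Mcm7 it ran from 0.12 to 0.45 over 4 probe sets.

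These arrays are the ones with the highest 3' to 5' ratio of beta-actin. They also had the lowest median deposited signals, 129.35 to 136.1 against 147.6 to 162.15 in the others. Over the 9 arrays the member mean correlated at r = 0.78 with the ratio and at r = -0.77 with the median signal. The beta-actin ratio was then used as a covariate, chosen after seeing the data. The member medians became 0.09 in mutant against wild-type, 0.01 in heterozygous against wild-type and 0.11 in mutant against heterozygous colons. In the last comparison 8 of 10 members were then higher, and none was called in any of the 3. With a term for the replicate number added as well, the medians were 0.14, -0.02 and 0.18. In the last comparison 7 of 10 were then higher, and again none was called. The parts of RNA shortening and of the lower median signal in the high values of the arrays numbered 1 were not tested.

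**Figure D3:**
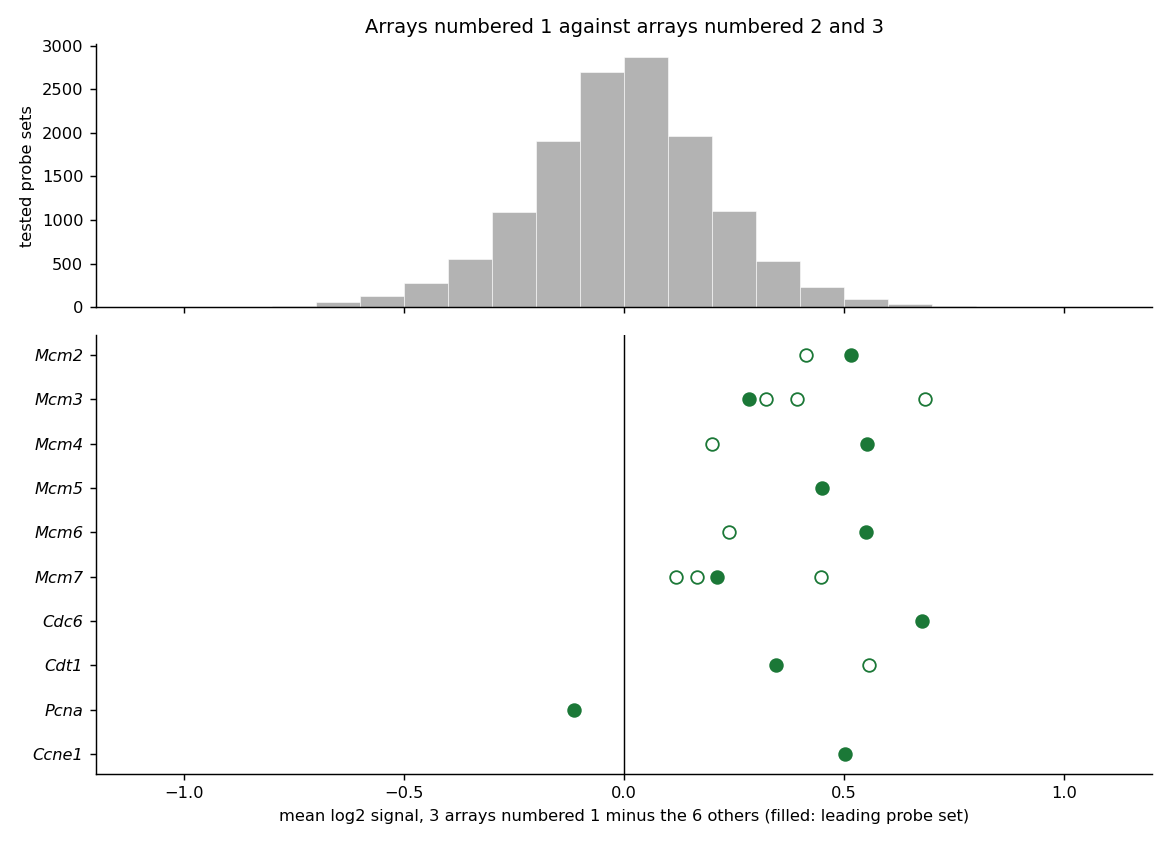
Mean normalized log2 signal of the 3 arrays numbered 1 minus that of the 6 others, as a histogram of all 13576 tested probe sets (top) and as 1 point per member probe set (bottom, filled for the leading one). The members other than Pcna lie between 0.12 and 0.68, to the right of most probe sets.

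Among themselves, over the 9 arrays, the leading probe sets of the members correlated at a median Pearson r of 0.65 over 45 pairs, with 37 positive. The points share the array, its depth of labelling and its RNA quality, so these correlations are given as descriptions. All 15 pairs of helicase subunits were positive, from 0.13 for Mcm4 with Mcm7 to 0.94 for Mcm2 with Mcm6. With each genotype centred on its own mean, the helicase pairs had a median of 0.70. All 8 negative pairs involved Pcna, the lowest being -0.66 with Mcm4. Against the mean of the other 9 members, r was 0.96 for Mcm2, 0.93 for Mcm6, 0.91 for Mcm5, 0.55 for Mcm7 and -0.31 for Pcna.

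The genes most like the member mean over the 9 arrays, among 8192 others with a tested probe set, were Dtl (r = 0.96) and Rrm2 (0.95). Dtl encodes the substrate receptor of the ubiquitin ligase that removes CDT1 in S phase, and Rrm2 a subunit of ribonucleotide reductase. Dtl read 340.4, 265.5 and 316.5 in wild-type, 454.9, 273 and 266.2 in heterozygous and 397.7, 293.3 and 350.8 in mutant colons, again with the array numbered 1 highest in each genotype. The other 8 of the 10 closest were Hacd1, Naf1, Ippk, Gabpb1, Pold1, Uhrf1, Tinf2 and Anks1, with r between 0.93 and 0.94. Pold1 is the catalytic subunit of DNA polymerase delta, and UHRF1 binds hemimethylated DNA behind the fork. These are the highest of 8192 values, and the central 95% of them ran from -0.77 to 0.78.

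Upstream of licensing, the genes of origin recognition and its control were divided. Of 10 such genes, 8 were tested, and in mutant against wild-type colons 4 were higher and 4 lower, with a median log2 difference of -0.00516. In heterozygous against wild-type colons 2 were higher and 6 lower, with a median of -0.08, Orc3 at 0.28 and Orc2 at -0.23. In mutant against wild-type colons Mcmbp, which encodes an MCM-binding protein, had the smallest p of them. Its log2 difference there was -0.43 (unadjusted p = 0.0106, adjusted p = 0.998 in limma). Orc3 and Orc4, subunits of the origin recognition complex, had differences of 0.21 and -0.16 in mutant against wild-type. The mean of this list stayed between -0.09 and 0.08 in the 9 arrays, with its genes going both ways, and -0.31 to 0.38 for the licensing genes. The difference between the lists was not tested.

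Downstream, the genes that fire origins gave 10 tested genes of 15. In mutant against wild-type colons 6 were higher and 4 lower, and in heterozygous against wild-type colons 1 was higher and 9 lower, with a median of -0.18, and none passed. Dbf4 and Cdc7, the kinase that activates the loaded helicase, had log2 differences of -0.27 and -0.35 in heterozygous colons (adjusted p = 0.666 and 0.672). Cdc45, another part of the active helicase, was too dim to be tested, at 75.5 signal units or less.

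Fork genes were arranged over the mice much like the licensing genes. Of 26 tested fork genes, 21 were higher in mutant than in wild-type colons, with a median of 0.10, and 22 were higher in mutant than in heterozygous colons, with a median of 0.17. Rpa1, the large subunit of the protein that coats single-stranded DNA, read 1988.7, 1743.4 and 1520.2 in wild-type, 2015, 1334.6 and 1233.6 in heterozygous and 2112.3, 2050.2 and 1840.9 in mutant colons. Its log2 difference of 0.44 in mutant against heterozygous colons had an unadjusted p of 0.0193 and did not pass (adjusted p = 0.648). Lig1, the ligase that joins Okazaki fragments, had a difference of 0.31 and Pold2 one of 0.26 in mutant against wild-type. The fork mean was 0.22, 0.21 and 0.12 in heterozygous 1, mutant 1 and wild-type 1, and 0.03 or less in the other 6.

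Regulators of the passage from G1 to S phase and enzymes of deoxynucleotide supply had no called gene either. Of 21 tested regulators 17 were higher in mutant than in wild-type colons, with a median of 0.04, beside 51.0% of all probe sets. In heterozygous against wild-type colons 14 were higher and 7 lower, with a median of 0.08. In mutant against heterozygous colons 9 were higher and 12 lower, with a median of -0.05, unlike the licensing genes. E2f1 and E2f3 were too dim to be tested, reading at most 79.3 and 63.4, so the levels of these E2F factors were not measured here with any precision. Of the 5 tested supply genes 4 were higher in mutant than in wild-type colons, with a median of 0.15. Rrm2 read 1905.1, 1422.9 and 1507.4 in wild-type, 2147.3, 1244 and 1232.5 in heterozygous and 2360.3, 1540.2 and 1648.3 in mutant colons.

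Mitosis genes were arranged in part in another order of mice. Of 14 tested, 13 were higher in mutant than in wild-type colons with a median of 0.25, and 14 were higher in mutant than in heterozygous colons with a median of 0.23. Here wild-type 1 was below both other wild-type arrays, with a mean of -0.17 against -0.06 and -0.10, whereas for the licensing genes it was the highest of its genotype. In the other genotypes the array numbered 1 was the highest for mitosis genes too, at 0.07 in heterozygous and 0.38 in mutant colons. Cenpf, a kinetochore protein gene, read 211.3, 208.9 and 231.5 in wild-type, 280.4, 186.1 and 202.3 in heterozygous and 412.9, 329 and 375.4 in mutant colons. Its log2 difference of 0.73 in mutant against wild-type did not pass (adjusted p = 0.998). Whether licensing and mitosis genes differ in their response to genotype was not tested.

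**Figure D4:**
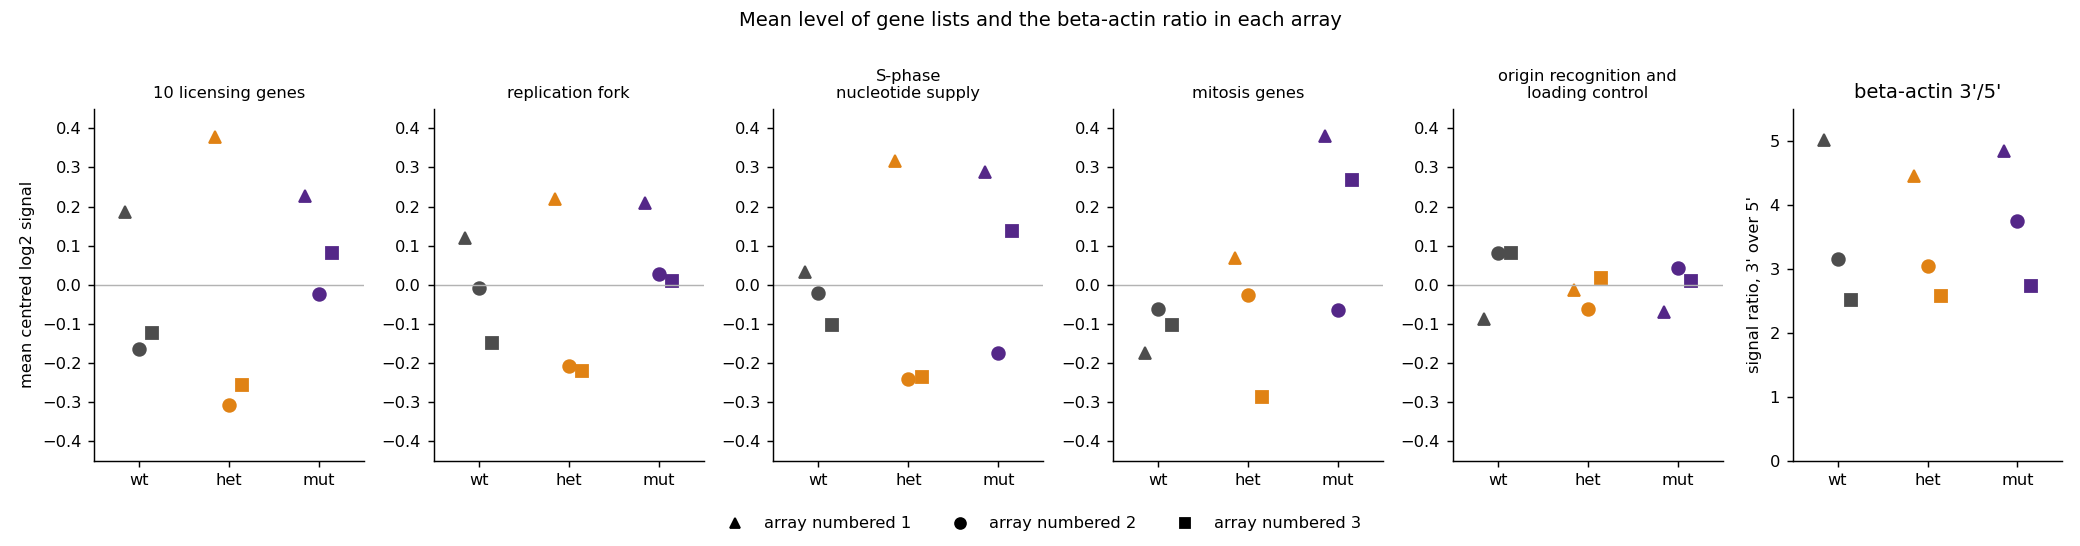
Mean centred log2 signal per array (1 point per mouse) of the 10 licensing genes and of 4 other gene lists, and the 3' to 5' ratio of beta-actin signal in the last panel. The arrays numbered 1 (triangles) are the 3 highest for licensing genes, fork genes and the beta-actin ratio, and not for mitosis or origin recognition genes.

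Cell type markers moved beside these values in part. The 6 fibroblast markers, all of them tested, had a mean of -0.30 in heterozygous 1, the lowest of the 9 arrays, where the licensing mean was the highest. Their summed signal ran from 11368 to 12021 in wild-type, 8923 to 11029 in heterozygous and 10009 to 10970 in mutant colons. The summed signal of 8 tested absorptive colonocyte markers overlapped between genotypes, at 28766 to 34144, 26483 to 32101 and 26292 to 35153. The 7 smooth muscle markers, all tested, were lower in heterozygous than in wild-type colons in 7 of 7 cases, 3 of them at an unadjusted p under 0.05 and none after adjustment. Their sums were 25805 to 26675 in wild-type, 21048 to 23288 in heterozygous and 23322 to 27975 in mutant colons. Of 6 enteric neuron and glia markers on the array 4 were tested, with sums of 2103 to 2510, 2064 to 2298 and 1839 to 2203. The 7 macrophage markers, all tested, were all lower in mutant than in wild-type colons, with a median of -0.29 and none called, and summed to 7204 to 10866, 7491 to 8430 and 6174 to 9248. All 3 tested adipocyte markers, of 4 on the array, were lower in mutant colons too, with a median of -0.60, and mutant 1 had the lowest sum, 2581 against 5708 or more in the other 8. Of 5 B and plasma cell markers on the array 2 were tested, and both were lower in both carrier genotypes. Ighm, the heavy chain of IgM, was wholly lower there, with a log2 difference of -0.84 for mutants (adjusted p = 0.998) and of -1.31 for heterozygotes (adjusted p = 0.232). T cell markers varied widely, with 3 of 6 on the array tested. Their sums were 642.3 to 1794, 311.6 to 1437 and 373 to 1623, with heterozygous 1 the lowest. All 3 were lower in mutant than in wild-type colons, with a median of -0.82, and none was called. Cd3d and Cd8a were wholly lower there, while Cd3e, the brightest, overlapped. In heterozygous against wild-type colons all 3 were lower too, with a median of -0.57. Of the crypt base markers Lgr5 was too dim to be tested, at 42.3 or less. The other 4 on the array summed to 3358 to 3941, 2865 to 3342 and 3205 to 3481. Sox9, with a mean signal of 2168, weighed most in these sums and was wholly lower in heterozygous than in wild-type colons. The markers were divided in that comparison, 2 higher and 2 lower, with a median log2 difference of 0.095. The part of the cell makeup in the licensing values was not tested.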

How the data were processed

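From each colon, 50 ng of RNA was amplified (NuGEN Ovation) and biotin labelled, per the labels' protocols. The authors deposited intensities on a linear scale, 1 signal per probe set and array. GCOS is named in the submitters' processing notes, without a version or scaling here. Trimmed means (2% at each end) lay between 500.1 and 500.2 in every array, while medians ranged from 129.35 to 162.15. After leaving out 64 control probe sets, 16 was added, log2 taken and the arrays quantile normalized. The 13576 probe sets at or above the 40th percentile of mean log2 signal, 75.9 signal units, were tested with limma 3.58.1 (R 4.3.3): lmFit and eBayes with a trend, all 9 arrays in 1 fit, no covariate, Benjamini-Hochberg adjustment over all tested probe sets, threshold 0.05. The method was tested on simulated data with planted changes and independent noise for each probe set. Members vary together between arrays, so that simulation does not give the power for them. Gene symbols are those of the platform table and may be outdated; of 22626 probe sets 20380 have 1 symbol, 691 several and 1555 none here. The members and the 22 gene lists were chosen with earlier results of these data known. Named were all members, at most 3 genes per other list and comparison with the smallest p, and the 10 genes whose leading probe set correlated best with the member mean; Cdc45, E2f1, E2f3 and the cell type markers were chosen after their values were seen. Alternatives were other normalizations, added constants, filters and moderation, array weights, the replicate block, arrays left out, and the beta-actin ratio as a covariate. Promoter sequences are those of RefSeq. Figures were drawn in matplotlib 3.10.9 (Python 3.11.15).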

Additional observations from a re-analysis of the deposited data

How the results depend on the processing

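No member probe set was called in any setting run, and the cause of each change below was not tested. Over all probe sets, limma called 3, 0 and 3 in mutant against wild-type, heterozygous against wild-type and mutant against heterozygous colons. Array weights gave 9, 134 and 4, and a fit of only the 2 genotypes gave 5 in the last comparison. With the beta-actin ratio as a covariate, added after seeing the data, the first count was 5. The labels do not say that equal replicate numbers mark a shared batch or litter. Deviations of same-numbered arrays correlated at -0.059 to 0.463, over 0.1 in 5 of 9 pairs, which falls short of the rule for pairing, and 6 of 9 arrays correlated best with their own number. The beta-actin ratio nonetheless separated the numbers, at 4.45 to 5.02, 3.05 to 3.75 and 2.52 to 2.73. With the replicate block the counts were 5, 0 and 8. Leaving out arrays gave 2 to 9, 0 to 3 and 1 to 7. The extremes were 9 without replicate 1, 3 and 7 without heterozygous 3, and 1 without heterozygous 1, mutant 2 or replicate 2.

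With all arrays, 16 of 408 log2 differences of members turned sign, none of them called. In mutant against heterozygous colons Mcm4 was -0.0017 on values as deposited and -0.070 with the beta-actin covariate, which also turned Cdt1 to -0.043. With that covariate and the replicate block, Mcm7 was -0.025, Cdt1 -0.017 and Pcna -0.064 there, and Cdc6 -0.029 and Ccne1 -0.018 in heterozygous against wild-type colons. Mcm7 in mutant against wild-type was 0.0058 with median centring, 0.24 with array weights and 0.096 as the mean of its probe sets. Cdc6 in heterozygous against wild-type was -0.0023 with 1 added before the log and -0.13 with array weights. As means of probe sets, Mcm2 was -0.021 in mutant, and Mcm3 0.092 and Mcm6 -0.078 in heterozygous against wild-type colons.

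With arrays left out, 48 of 267 turned sign. In mutant against wild-type Mcm3 ranged from -0.023 to 0.21, Mcm4 from -0.019 to 0.48, Mcm5 from -0.017 to 0.25 and Mcm7 from -0.25 to 0.17. In heterozygous against wild-type the ranges were -0.36 to 0.13 for Mcm2, -0.33 to 0.19 for Mcm3, -0.0093 to 0.43 for Mcm4, -0.26 to 0.22 for Mcm6, -0.35 to 0.26 for Cdc6, -0.094 to 0.22 for Cdt1 and -0.18 to 0.21 for Ccne1. In mutant against heterozygous they were -0.095 to 0.42 for Mcm3, -0.23 to 0.27 for Mcm4, -0.019 to 0.35 for Mcm7, -0.083 to 0.24 for Cdt1, -0.026 to 0.14 for Pcna and -0.035 to 0.38 for Ccne1. A 60th percentile filter left 6 genes. Mcm5, Cdc6 and Ccne1 lay near the brightness limit, where signal is least precise.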
